A study of Mus musculus with 8 samples.

Results

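Livers of mice labelled Fxr-/- were set against livers of mice labelled Fxr+/+ after both had received GW4064. The members were taken from the labels alone: 2 arrays of Fxr-/- GW4064 and 2 arrays of Fxr+/+ GW4064, which are 4 of the 8 arrays in the series. All mice were males of 10 to 12 weeks, gavaged 2 times a day for 7 days with either vehicle alone or 30 mg/kg of GW4064, and each array carried liver RNA pooled from 3 to 4 animals. The design text names the search for FXR-regulated genes in liver as the aim. Because both groups had the drug, the comparison holds the treatment constant and varies the genotype label. The labels give neither the strain, the deleted part of the gene, nor whether the deletion was in every tissue. Nothing in them tells how separately the 2 pools within each group were kept. The p-values rest on the spread between pools within groups, estimated jointly over the groups with 2 arrays and moderated across genes. The vehicle groups show whether the same genes differed without the drug, and their arrays also enter the probe filter and the fit. Under vehicle the Fxr-/- group has 1 array with usable signals, since the column of its replicate 2 held other values. In all, 7 of the 8 arrays entered the fit.

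The farnesoid X receptor, FXR, is the nuclear receptor for bile acids and is encoded by Nr1h4. It binds DNA with a retinoid X receptor partner, and GW4064 is a synthetic agonist of it. In mouse liver FXR is known to raise the bile salt export pump Abcb11 and the small heterodimer partner Nr0b2, which in turn lowers the bile acid synthesis enzymes Cyp7a1 and Cyp8b1. It is also known for effects on lipid handling and on detoxification.

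Every value named a signal below is the linear, background-subtracted brightness of 1 probe, and differences are of log2(signal + 16), written as Fxr-/- minus Fxr+/+ with the standard error of the fit. The offset of 16 makes the differences of dim genes smaller than their true ratios. Adjusted p-values come from limma with Benjamini-Hochberg adjustment over all genes tested, at a threshold of 0.05, and "rose", "fell", "higher" and "lower" describe arrays labelled Fxr-/- relative to Fxr+/+ arrays. A signal under 39.5, the size of the most negative signal, lies in the range of the background. Where both arrays of the dimmer group lay there, the ratio is given as a lower bound against 39.5.

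The 4 arrays were alike in quality. Replicates had a Spearman correlation over probes of 0.969 for Fxr+/+ and 0.967 for Fxr-/-, and pairs of opposite genotype had values between 0.948 and 0.956. Hepatocyte markers were bright in all 4, with summed signals of 234617 and 241662 in Fxr+/+ and of 201625 and 161685 in Fxr-/- over the 11 markers tested. Of these 11, Serpina1a, Apoa2 and Trf fell, and the median difference was -0.37. Serpina1a passed without any single array, while the adjusted p of Apoa2 reached 0.16 without Fxr+/+ replicate 2 and that of Trf 0.182 without Fxr+/+ replicate 1. In bulk liver, fewer cells of a type and less RNA per cell cannot be told apart.

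A probe of the targeted gene still gave signal in both genotypes. The Nr1h4 signal was 3328 and 3483 in Fxr+/+ and 2048 and 1852 in the arrays labelled Fxr-/-. The groups did not overlap, with a difference of -0.80 ± 0.19 and an adjusted p of 0.0276. That call was lost without any one of the 4 arrays, where the adjusted p was 0.131, 0.166, 0.06 and 0.123 (without Fxr+/+ replicate 1, Fxr+/+ replicate 2, Fxr-/- replicate 1 and Fxr-/- replicate 2). Whether this probe lies in the deleted part is not known here, so it does not check the labels, and each direction below rests on them.

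The genotype labels separated the 4 arrays over a large share of the genes. Of 9766 genes tested, 1425 passed the threshold, which is 14.6%. Of these, 532 were higher (5.45%) and 893 were lower (9.14%) in the arrays labelled Fxr-/-. Every list count below is to be read beside these shares. Without adjustment, 2857 genes had a p under 0.05, beside 488 expected if none differed. The changes were often large: 1027 of the called genes differed by at least 1 on the log2 scale (306 higher and 721 lower) and 242 by at least 2 (66 higher and 176 lower). Over all genes the median difference was 0.08. All 1425 called genes had groups that did not overlap, so non-overlap adds nothing to a call. Named genes were mostly chosen by size or smallest p, so gaps wider than the replicate spread describe them and add no support. Both Fxr-/- arrays were in the background range for 237 of the falls, and both Fxr+/+ arrays for 113 of the rises.

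The number of calls depended on the processing and on single arrays. It was 923 with an offset of 1, 382 with no filter on dim probes and 1380 with the 4 GW4064 arrays alone. The count was 581 without Fxr+/+ replicate 1, 498 without Fxr+/+ replicate 2, 1030 without Fxr-/- replicate 1 and 610 without Fxr-/- replicate 2, fits in which the spread of a lone array was taken from the remaining groups. Replicate numbers here are those of the GW4064 arrays. Below, 4 counts or adjusted p-values "with 1 array left out" follow that same order. Of the called genes named by rule, 34 had more than 1 kept probe, all of 1 sign within a gene. In 12 of these at least 1 probe did not pass on its own. Adjusted p-values of single probes come from a separate fit, adjusted over 13218 kept probes with a symbol. In it even the reported probes of Gpr182, Pparg, Prox1, Slc25a3 and Usp2 missed the threshold, so the 12 do not count disagreement between probes alone. Of the 138 genes named by rule that passed, 94 also passed in each of the 7 fits that leave out an array.

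**Figure D1:**
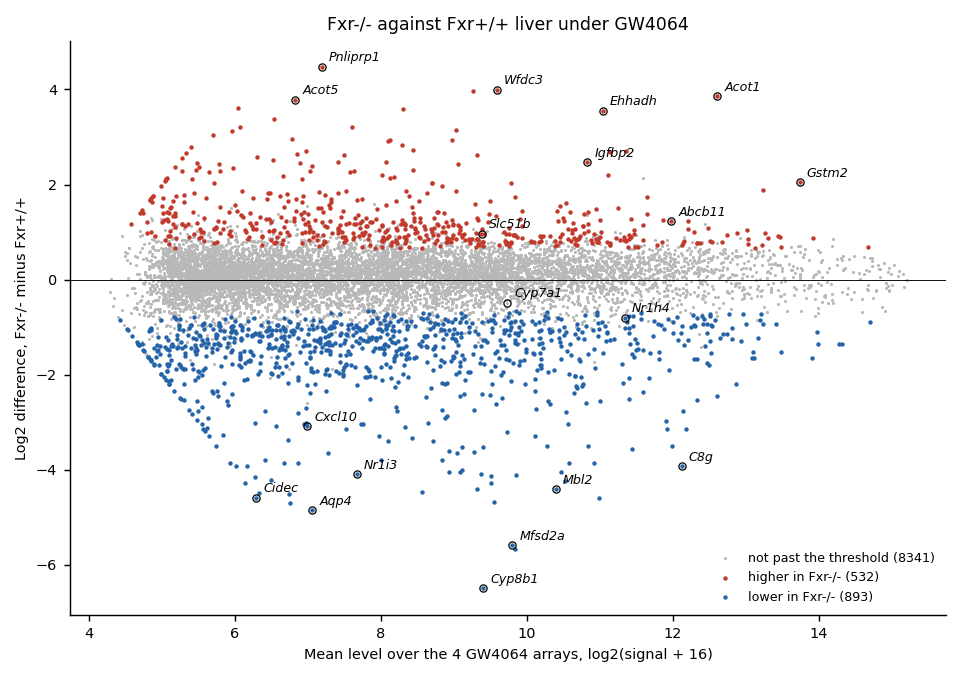
Each point is a gene, with its mean level over the 4 GW4064 arrays (log2 of signal + 16) on the x axis and its Fxr-/- minus Fxr+/+ log2 difference on the y axis. The 532 higher and 893 lower genes span all levels, with differences from -6.50 (Cyp8b1) to 4.48 (Pnliprp1). The sloping lower left edge holds genes whose Fxr-/- signal was at or below 0, where the offset sets the difference.

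The largest fall of all was that of Cyp8b1, the sterol 12-alpha-hydroxylase that directs bile acid synthesis towards cholic acid. Its signal was 6484 and 6307 in Fxr+/+ and 92.4 and 30.6 in Fxr-/-, a difference of -6.50 ± 0.36 (adjusted p = 0.000127). That is a lower signal in the arrays labelled Fxr-/- for a gene known to be lowered through FXR. Next came Haao, an enzyme of the kynurenine route from tryptophan towards NAD, with 6633 and 6351 against 149 and 85 (-5.66 ± 0.33). Mfsd2a, a carrier of lysophosphatidylcholine, had 6815 and 5549 against 132 and 96 (-5.58 ± 0.22, adjusted p = 8.73e-05). In each of the 3, both Fxr-/- arrays lay far below both Fxr+/+ arrays.

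Other genes among the 15 largest falls were also bright in Fxr+/+ and dim in Fxr-/-. Cyp2a12, a hepatic cytochrome P450, went from 10748 and 9293 to 606 and 260.5 (-4.59 ± 0.35). Mbl2, a mannose-binding lectin that starts the lectin route of complement, went from 5375 and 7118 to 400.0 and 189 (-4.41 ± 0.34). Gchfr, the regulator of GTP cyclohydrolase, went from 4067 and 3531 to 164 and 106 (-4.68 ± 0.26). The groups stood far apart in each case, while the Fxr-/- replicates of Cyp2a12 and Mbl2 also differed visibly from each other. Aspdh (-4.40), Pdzk1 (-4.48), a scaffold protein of membrane transporters, and Keg1 (-4.28), a glycine acyltransferase family gene, completed those whose Fxr-/- signals were not both in the background.

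The remaining 6 of those 15 falls had both Fxr-/- arrays in the background range. Aqp4, a water channel, was at least 17.7-fold lower (764 and 643 against 15.2 and 3.7). Cldn2, a tight junction protein, was at least 13.5-fold lower (587 and 481 against 12 and -2.6). Rec8, a meiotic cohesin subunit, was at least 12.5-fold lower (460.5 and 534 against 5.9 and 7). No signal beyond background was left in Fxr-/- for these genes, so their falls have no upper size. Cidec was at least 9.3-fold, Ces2e at least 9.26-fold and Scnn1a at least 7.46-fold lower.

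Rises of similar size were fewer. Pnliprp1, a pancreatic lipase-related protein, was at least 17.1-fold higher, at 11.1 and 19.5 in Fxr+/+ and 645 and 704 in Fxr-/- (adjusted p = 0.000105). It is 1 of 6 tested pancreatic acinar markers, of 16 on the array, of which Cela3b also rose (39.7 and 41.7 against 109 and 136) and the other 4 did not pass. The summed signal of those 6 was 946 and 960 in Fxr+/+ and 1910 and 1620 in Fxr-/-, and their part in the result was not tested. Wfdc3, a whey acidic protein family gene, had 164 and 191 against 2527 and 3713 (4.00 ± 0.23). Rcan2, an inhibitor of calcineurin, had 70.7 and 79.7 against 964 and 1197 (3.58 ± 0.30). Both were higher in the 2 Fxr-/- arrays by far more than the replicates differed.

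Most of the remaining rises in that set of 15 belonged to genes that were dim or in the background in Fxr+/+. Atp4a, the catalytic subunit of the gastric proton pump, was at least 5.43-fold higher, Crybb3, a lens crystallin, at least 7.11-fold, and Acot5, a peroxisomal acyl-CoA thioesterase, at least 10.2-fold. Parm1, Fabp3, Cfap20dc and Synm were at least 4.75-fold, 4.09-fold, 3.38-fold and 7.34-fold higher. The 3 kept probes of Synm disagreed in size, with 2.95 for the one reported and 1.44 and 0.04 (adjusted p = 0.936) for the others. The Fabp3 replicates were wide apart (63.6 and 410.1 in Fxr-/-), and its adjusted p of 0.0223 became 0.127 without Fxr+/+ replicate 1 and 0.068 without Fxr+/+ replicate 2. Cox6b2, an isoform of a cytochrome oxidase subunit, differed by 3.15 on the log2 scale. Its other kept probe gave 1.03 and did not pass in the fit of single probes (adjusted p = 0.0507). Pdk4, Acot1, Ehhadh and Slc27a1 belong to fatty acid handling and are described with it.

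**Figure D2:**
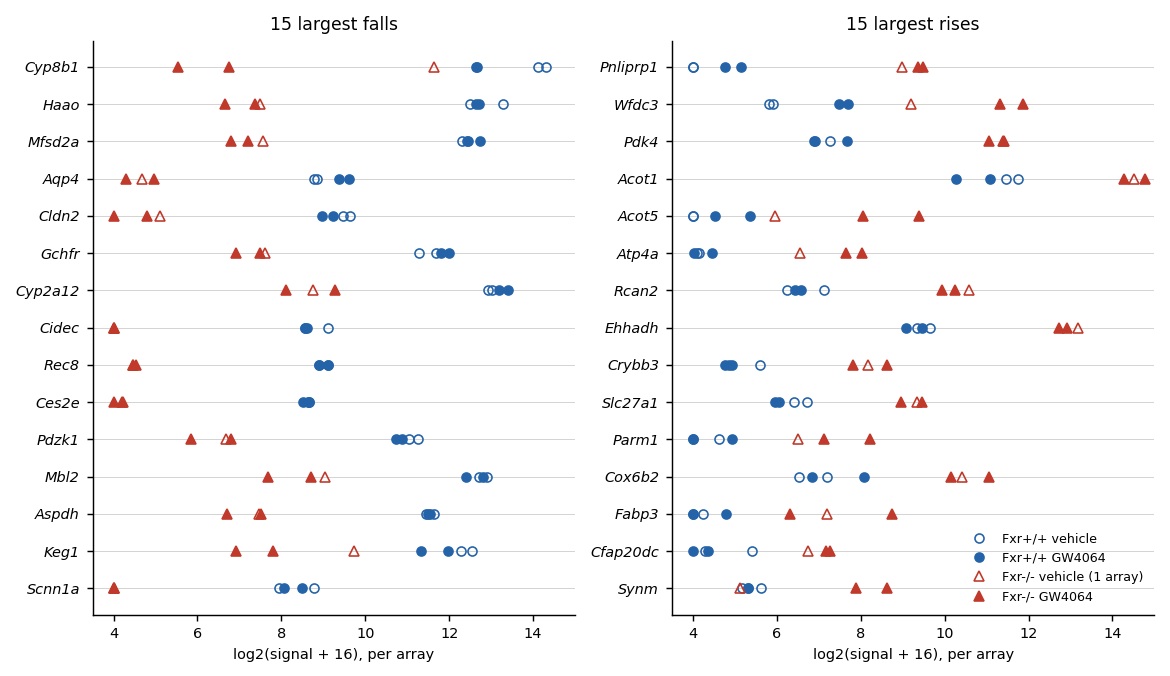
The level of each of the 15 largest falls (left) and 15 largest rises (right) is shown on every array as log2(signal + 16), with open symbols for vehicle, filled symbols for GW4064, circles for Fxr+/+ and triangles for Fxr-/-. The genes were chosen among those whose filled symbols do not overlap, so the plot shows sizes and replicate spread, and a level of 4 means a signal at or below 0.

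The pathway that FXR is best known for was tested over 20 genes of bile acid synthesis and conjugation, of which 5 fell, 2 rose and 13 did not pass, beside 9.14% lower and 5.45% higher over all genes. The median was -0.42. Besides Cyp8b1, the falls included both enzymes that join bile acids to amino acids. Baat, the transferase that adds taurine or glycine, had 2358 and 2194 in Fxr+/+ and 257 and 131 in Fxr-/- (-3.52 ± 0.29, adjusted p = 0.000474). Slc27a5, the bile acyl-CoA synthetase that activates bile acids for it, had 6255 and 6029.7 against 846 and 326 (-3.50 ± 0.40). Hsd3b7, which acts early on the sterol ring, had 9942 and 10796 against 3591 and 2582 (-1.76 ± 0.22). All 3 were lower in both Fxr-/- arrays than in either Fxr+/+ array, as held for every called fall. Of this list 4, 4, 6 and 4 genes were lower and 0, 0, 1 and 0 higher with 1 array left out.

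Cyp7a1, the rate-limiting enzyme of the classic route, did not pass under GW4064. Its signal was 984 and 1002 in Fxr+/+ and 805 and 613 in Fxr-/-, a difference of -0.49 with a 95% interval from -1.06 to 0.08 (adjusted p = 0.231). Cyp27a1, which opens the alternative route, had 7237 and 8054 against 7204 and 7072, a difference of -0.10 with an interval from -0.53 to 0.34. The vehicle arrays had far more Cyp7a1 signal in both genotypes, 7144 and 4934 in Fxr+/+ and 3846 in Fxr-/-.

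Transporters of bile acids and of canalicular lipids gave 1 rise and 4 falls among 16 tested genes (median -0.23), and 1, 0, 1 and 0 rises with 2, 2, 4 and 2 falls when 1 array was left out. The shares over all genes were 5.45% higher and 9.14% lower. Abcb11, the bile salt export pump, rose from 2719 and 2511 to 5159.9 and 7318 (1.23 ± 0.22, adjusted p = 0.0107). That is a higher signal in the arrays labelled Fxr-/- for a gene known to be raised by FXR. It kept its sign, but its adjusted p was 0.0612 without Fxr+/+ replicate 1, 0.0826 without Fxr+/+ replicate 2 and 0.0573 without Fxr-/- replicate 2. Slco2b1, an organic anion uptake carrier, fell from 7499 and 7158 to 592 and 405 (-3.86 ± 0.24). Abcc6, an efflux pump of the ABC family, fell from 819 and 1207 to 239 and 175 (-2.19 ± 0.27). Slc10a1, the main bile acid uptake carrier of hepatocytes, had a dim probe with 108 and 88.7 against 49.8 and 22.2 (-1.19 ± 0.28, adjusted p = 0.0298). It passed neither without one of the Fxr+/+ arrays (adjusted p of 0.164 and 0.105) nor without Fxr-/- replicate 2 (0.124).

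The other transport genes fixed by name did not pass. Abcb4, the phospholipid flippase, differed by 0.30 with an interval from -0.17 to 0.77. Slc51b, 1 chain of the exporter of bile acids at the basolateral side, had 719 and 295 against 881 and 957, a difference of 0.97 (adjusted p = 0.129), and without Fxr+/+ replicate 1 the adjusted p was 0.0196. Slc51a, the other subunit, was in the background range in both groups, and the probe of Nr0b2 was below 0 on all 7 arrays and was not tested. Over the wider list of 29 FXR target genes, 5 rose and 5 fell, beside 5.45% higher and 9.14% lower over all genes. The median was 0.16, close to that of all genes. The rises were led by Pdk4 and the falls by Cyp8b1, Baat, Slc27a5 and Apoc2. Rises in this list numbered 4, 2, 5 and 2 and falls 4, 4, 5 and 4 with 1 array left out.

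Promoters of the genes with the largest falls were searched for short motifs, in RefSeq windows of assembly GRCm38.p6 from 250 bases before to 50 after the gene start. Of the 13 with a window, 3 held an element of hepatocyte nuclear factor 4, CAAAGTCCA: Cyp8b1, Aspdh and Pdzk1. Of all 27025 genes with a window, 0.555% held it. Those 27025 genes were not filtered for signal in liver, as the falls were, and the element was 1 of 11 motifs searched. The share therefore describes these genes and not the genotype comparison. A match is a description and does not show a site in use. The 120 bases before the start are printed for Cyp8b1, the largest fall, and for Aspdh, 5′ to 3′ on the strand of the gene, with the element in capitals. Cyp8b1 lies on the minus strand at chr9:121916306-121916425 and its element starts 67 bases before the gene start. Aspdh lies on the plus strand at chr7:44465315-44465434, with the element 52 bases before the start.
Cyp8b1: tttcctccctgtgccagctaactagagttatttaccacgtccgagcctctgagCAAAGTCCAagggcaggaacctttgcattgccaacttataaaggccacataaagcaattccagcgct
Aspdh: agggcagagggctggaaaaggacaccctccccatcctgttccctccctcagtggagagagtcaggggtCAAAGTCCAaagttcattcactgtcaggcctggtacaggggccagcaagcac

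The FXR element was searched as AGGTCA and its reverse complement TGACCT around 1 free base, with and without the outermost bases. The sets searched were the 15 largest rises, the 15 largest falls, the called rises of the fatty acid oxidation list and the called falls of the bile acid synthesis, cholesterol, complement and interferon lists, of which only 2 of the 5 bile acid falls had a window. The element was in none of the windows of these sets, and in 0.0111% and 0.0481% of all genes. The direct repeat bound by PPARs with their partner was searched as 2 copies of AGGTCA around 1 free base, without the first base, and as GGNCA and AGGNCA around 1 free base. This last, loosest form was in Pdzk1 alone among the same sets, against 0.932% of all genes. It can share bases with the element CAAAGTCCA. The hepatocyte nuclear factor 1 palindrome, searched as GTTAAT and ATTAAC around 1 free base, with and without the last base, had no match in these sets.

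Fatty acid oxidation and PPAR-alpha target genes were the group with the largest count of rises. Of 29 tested genes, of 30 on the array, 15 rose, 1 fell and 13 did not pass, beside 5.45% higher and 9.14% lower over all genes. The median was 0.81. PPAR-alpha is the nuclear receptor that turns on fat burning in fasted liver. Acot1, a cytosolic acyl-CoA thioesterase, had 1219 and 2152 in Fxr+/+ and 19818 and 28210.1 in Fxr-/- (3.85 ± 0.31, adjusted p = 0.000427). Ehhadh, the bifunctional enzyme of peroxisomal oxidation, had 686 and 521 against 7681 and 6763 (3.56 ± 0.22). Pdk4, the kinase that shuts pyruvate dehydrogenase in fasting, had 103 and 188 against 2133 and 2730.1 (3.96 ± 0.30). All 3 stood more than 10-fold apart by the fitted difference. Acot3, a peroxisomal thioesterase, had 1135 and 900.3 against 6689 and 6720.2 (2.71 ± 0.20).

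In that list 8, 9, 10 and 8 members were higher with 1 array left out. Related thioesterases share sequence, so probes of the Acot family may read more than 1 gene. The single fall was Bdh1, the ketone body dehydrogenase of mitochondria, named after its value was seen: 3266 and 3586 against 509.6 and 221 (-3.28 ± 0.35). Ppara itself, also named afterwards, had 192 and 88.9 against 114 and 26.8 and did not pass (adjusted p = 0.274).

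**Figure D3:**
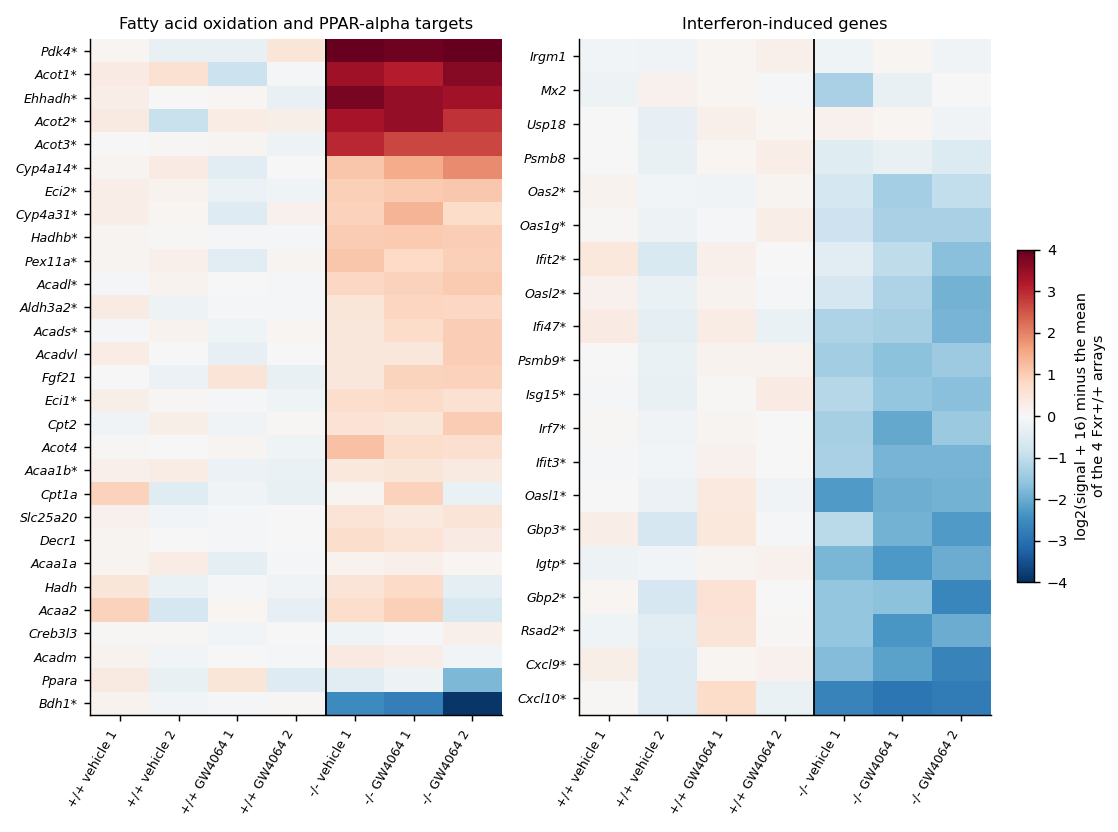
Colour gives log2(signal + 16) on each of the 7 arrays minus the mean of the 4 Fxr+/+ arrays, for the fatty acid oxidation list (left) and the interferon-induced list (right), and an asterisk marks genes past the threshold under GW4064. As for all called genes, the GW4064 groups of the 15 called rises and 16 called falls do not overlap. The Fxr-/- vehicle array has the colour of its GW4064 counterparts in most rows.

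Lipid droplet and fatty acid uptake genes gave 9 rises and 3 falls among 21 tested. Their median was 0.57, and the shares over all genes were 5.45% higher and 9.14% lower. The fatty acid carrier Slc27a1 rose from 45.8 and 50.3 to 485 and 685 (3.21 ± 0.23). Droplet proteins passed in both directions. The called rises also included Plin2 (1.39), Cidea (1.33), Plin5 (1.28), Hilpda (1.06) and Fitm2 (0.93). The 3 falls were likewise of fat storage proteins, 2 of them relatives of Cidea and 1 of Fitm2. Cideb, which enlarges lipid particles in hepatocytes, went from 4369 and 4286 to 592 and 446 (-3.03 ± 0.20). Cidec, known for droplet fusion, went from 362 and 373 to -9.2 and -4.5, and Fitm1, a droplet-forming protein of the endoplasmic reticulum, from 84.7 and 136 to -23.6 and -18.8, at least 2.72-fold lower. Members higher with 1 array left out numbered 5, 4, 8 and 5, and 3 were lower each time.

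Fatty acid and triglyceride synthesis genes mostly did not pass: 2 of 24 rose and 1 fell, beside 5.45% and 9.14% over all genes. The median was -0.08. Mogat1, an acyltransferase that makes diacylglycerol, rose from 76.4 and 67.3 to 436 and 371 (2.25 ± 0.19). Acaca, acetyl-CoA carboxylase, had 3719 and 3140.2 against 6146 and 5912 (0.82 ± 0.19, adjusted p = 0.0271), and passed in none of the fits that left out 1 of the 4 arrays (0.0882, 0.193, 0.0848 and 0.0965). Elovl5, a fatty acid elongase, fell from 11157 and 7499 to 3249 and 2544 (-1.66 ± 0.25). In those fits the list had 1 rise each time and 1, 1, 2 and 1 falls.

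Cholesterol synthesis and uptake genes moved in 1 direction where they passed. Of 18 tested, of 19 on the array, 11 fell and 0 rose, beside 9.14% lower and 5.45% higher over all genes. All 18 differences were below 0, with a median of -0.92. Stard4, a cytosolic sterol carrier, went from 1169.8 and 922 to 269.9 and 248 (-1.94 ± 0.22, adjusted p = 0.00168). Msmo1, a sterol demethylation enzyme, went from 1849 and 1496 to 611 and 581 (-1.46 ± 0.20). Hmgcs1, which makes the precursor of mevalonate, went from 13814 and 14059.7 to 5295 and 6746 (-1.22 ± 0.20, adjusted p = 0.00827). Cyp51, the lanosterol demethylase, went from 714 and 534 to 248 and 207 (-1.39 ± 0.27, adjusted p = 0.0156).

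The number of falls in the cholesterol list was 2, 3, 6 and 3 with 1 array left out. Hmgcs1 then passed only without an Fxr-/- array (0.0578 and 0.065 without the Fxr+/+ arrays), and Cyp51 only without Fxr-/- replicate 1 (0.109, 0.0517 and 0.098 otherwise). The sterol regulatory element TCACNCCAC was in the promoter window of Hmgcs1 alone among 9 of these 11 genes with a window, against 1.44% of all genes.

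Lipoprotein and sterol efflux genes gave 9 falls and 3 rises among 23 tested, beside 9.14% lower and 5.45% higher over all genes. The median was -0.41. Apoa4, an apolipoprotein of triglyceride-rich particles, went from 5396 and 3195 to 455 and 276 (-3.49 ± 0.32). Apom, the carrier of sphingosine-1-phosphate on HDL, went from 3312 and 4500.2 to 662 and 455 (-2.78 ± 0.25). Apoc2, the activator of lipoprotein lipase, went from 1733 and 1464 to 259.5 and 191 (-2.75 ± 0.22, and -1.40 by its other kept probe). Each of them was lower in both Fxr-/- arrays by more than the replicates differed. Apon, an apolipoprotein gene active in mouse, fell by 2.02. Falls in this list numbered 5, 4, 8 and 4 and rises 1, 1, 3 and 1 with 1 array left out.

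Drug-metabolising genes that answer to the xenobiotic receptors CAR and PXR gave 14 falls and 1 rise among 25 tested. Their median was -1.24, and the shares over all genes were 9.14% lower and 5.45% higher. CAR itself, encoded by Nr1i3, had 772 and 879.5 in Fxr+/+ and 73.5 and 11.2 in Fxr-/- (-4.09 ± 0.50, adjusted p = 0.0021). Cyp2b10, its best-known target, had 6146 and 6615 against 2161 and 1864 (-1.66 ± 0.23, adjusted p = 0.00356), and its other kept probe gave -1.03 and did not pass (adjusted p = 0.143). Cyp2c55 had 1529 and 1054 against 208 and 116 (-2.90 ± 0.36). The glutathione transferase Gsta1 had 5179.8 and 3685 against 781 and 649 (-2.59 ± 0.26), and Gsta2 differed by -2.19. Probes of the Cyp2b, Cyp2c and Gsta families may each read near-identical relatives.

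Cyp3a11, the main PXR-responsive P450, had 32797 and 30695 against 16731 and 9153 (-1.36 ± 0.32, adjusted p = 0.0295). It did not pass without Fxr+/+ replicate 1 (0.142), Fxr+/+ replicate 2 (0.126) or Fxr-/- replicate 2 (0.134). The falls in the CAR and PXR list numbered 7, 8, 12 and 9 with 1 array left out. The rise was Gadd45b, a stress-response gene named after its value was seen, with 196 and 194 against 510.4 and 1033 (1.82 ± 0.32).

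Genes of glutathione metabolism and the NRF2 response were mixed, with 8 falls and 2 rises among 34. Their median was -0.27, and the shares over all genes were 9.14% lower and 5.45% higher. Gstm2, a glutathione transferase of the mu class, rose from 7192 and 6189 to 26186 and 29374 (2.05 ± 0.19, adjusted p = 0.000709), while Gstt3 of the theta class fell from 5247 and 4663 to 996 and 699.7 (-2.54 ± 0.24). The list had 4, 4, 5 and 4 falls and 1 rise each time with 1 array left out. Among 16 glucuronyl- and sulfotransferase genes 5 fell and 1 rose (2, 2, 5 and 2 falls with 1 array left out, and 1, 0, 1 and 0 rises). Ugt3a1 had 2436 and 1981 against 257 and 49.3 (-4.05 ± 0.56) and Ugt2b1 had 1607 and 1463 against 394 and 189.8 (-2.41 ± 0.31). Sult1e1, the estrogen sulfotransferase, rose, with 8.6 and -13.3 against 26.9 and 47.7. Sult1e1 is given no fold, as 1 Fxr-/- array also lay in the background range. It did not pass without Fxr+/+ replicate 2 (0.113) or Fxr-/- replicate 2 (0.0977).

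Complement and coagulation factors gave 14 falls and 0 rises among 32 tested, beside 9.14% lower and 5.45% higher over all genes. The median was -0.50. Hepatocytes make most of these plasma proteins. C8g, the gamma chain of complement component 8, had 18486 and 16264 in Fxr+/+ and 1419.8 and 893 in Fxr-/- (-3.93 ± 0.26, adjusted p = 0.000217). F12, the coagulation factor that starts the contact route, had 6044 and 7344 against 1680.0 and 1462 (-2.08 ± 0.20). C4bp, an inhibitor of complement, had 4882 and 5059 against 1693 and 1499.5 (-1.63 ± 0.20). In each, the replicates of a genotype lay close together beside the gap between genotypes. The count of falls was 8, 7, 13 and 8 with 1 array left out.

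Acute phase genes gave 4 falls and 1 rise among 29, shares near the 9.14% lower and 5.45% higher over all genes. The median was 0.03. Cxcl1, a neutrophil-attracting chemokine, fell from 1709.8 and 2730.1 to 252 and 99 (-3.63 ± 0.40). Saa2, an acute phase apolipoprotein with close relatives, fell from 302 and 327 to 88.7 and 102 (-1.57 ± 0.19). Itih3 had 4846 and 5024 against 7936 and 11371 (0.94 ± 0.23), with an adjusted p of 0.0323 that became 0.16, 0.147 and 0.149 without Fxr+/+ replicate 1, Fxr+/+ replicate 2 and Fxr-/- replicate 2. This list had 3, 2, 3 and 3 falls and 0, 0, 1 and 0 rises with 1 array left out.

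Urea cycle, amino acid and one-carbon genes gave 9 falls and 3 rises among 31, beside 9.14% lower and 5.45% higher over all genes. The median was -0.42. Besides Haao, the kynurenine hydroxylase Kmo fell from 1017 and 1127 to 129 and 65.3 (-3.32 ± 0.28). Otc, the urea cycle enzyme ornithine transcarbamylase, had 419 and 332 against 6.9 and 3.3 and was at least 9.44-fold lower (adjusted p = 0.000107). Shmt2, a mitochondrial enzyme that feeds one-carbon metabolism, went from 739 and 784 to 129 and 75.2 (-2.76 ± 0.25). For Otc no signal beyond background was left in Fxr-/-. With 1 array left out, 5, 7, 7 and 7 members fell and 1 rose each time.

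Interferon-induced genes were the list with the largest count of falls: 16 of 20 tested, of 23 on the array, and 0 rises, beside 9.14% lower over all genes. All 20 differences were below 0, with a median of -1.74. Igtp, an interferon-gamma-induced GTPase, had 3539.6 and 3694 in Fxr+/+ and 655 and 819 in Fxr-/- (-2.28 ± 0.20, adjusted p = 0.000559). Ifit3, an antiviral protein, had 1672 and 1497 against 397 and 399 (-1.95 ± 0.18). Rsad2, known as viperin, had 1476 and 1062 against 191 and 244 (-2.45 ± 0.24). The groups were far apart beside the replicate spread. Cxcl10, a T-cell attracting chemokine, had 508 and 246 against 26.4 and 29, at least 8.95-fold lower. With 1 array left out, 11, 12, 14 and 13 members fell.

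The promoters of these genes are shown because several of the called members share a short element. The core of the interferon-stimulated response element, 2 copies of GAAA around 2 free bases, was searched on both strands in the same windows. It was in 8 of the 15 called members with a window (Igtp, Ifit3, Rsad2, Cxcl10, Isg15, Oas1g, Gbp3 and Gbp2) and in 3.99% of all genes. Within this list of interferon-induced genes only called members were counted, so the share describes them and not the genotype comparison. The gamma-activated site TTCNNNGAA was in Igtp and Ifit2, against 9.55% of all genes. The windows of 120 bases are 5′ to 3′ on the strand of the gene with each match to the core in capitals, which shows as copies of TTTC where the match is on the opposite strand. Isg15 (chr4:156200819-156200938, minus strand) holds 3 overlapping matches, the first 78 bases before the start. Igtp (chr11:58199436-58199555, plus strand) holds 1 at 34 bases before the start, Ifit3 (chr19:34583353-34583472, plus strand) 2, from 156 bases before the start, and Cxcl10 (chr5:92349003-92349122, minus strand) 1 at 213. Isg15, a ubiquitin-like protein, is named here for its promoter and had 522 and 644 against 163 and 148.
Isg15: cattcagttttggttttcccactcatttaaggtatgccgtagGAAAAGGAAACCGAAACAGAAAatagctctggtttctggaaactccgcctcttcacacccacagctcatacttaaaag
Igtp: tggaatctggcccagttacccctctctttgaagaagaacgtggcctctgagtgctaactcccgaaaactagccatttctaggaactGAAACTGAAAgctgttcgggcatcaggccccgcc
Ifit3: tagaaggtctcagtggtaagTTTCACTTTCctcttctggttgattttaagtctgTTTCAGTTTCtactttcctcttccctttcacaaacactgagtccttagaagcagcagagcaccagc
Cxcl10: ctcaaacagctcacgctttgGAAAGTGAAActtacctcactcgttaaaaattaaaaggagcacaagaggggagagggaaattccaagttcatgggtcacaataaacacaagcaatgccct

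Antigen presentation genes gave 6 falls and 0 rises among 15, beside 9.14% lower and 5.45% higher over all genes. The median was -0.87. Ciita, the activator of class II genes, had 30.3 and 49.4 against -4.9 and -2.2 and passed (adjusted p = 0.00329), but with 1 Fxr+/+ array also in the background range no fold is given. The class II chain H2-Ab1 had 1419.8 and 3461 against 698 and 515 (-1.86 ± 0.40, adjusted p = 0.0216), and passed only without Fxr+/+ replicate 1 among the 4 fits (0.085, 0.0575 and 0.131 without the others). Tap1, the peptide transporter, had 238 and 219 against 72.6 and 95 (-1.30 ± 0.20), with an adjusted p of 0.0504 without Fxr+/+ replicate 1. The count of falls was 5, 3, 3 and 2 with 1 array left out.

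Markers of immune cells moved with those 2 lists, and their counts stand beside 9.14% lower and 5.45% higher over all genes. Of 10 neutrophil markers tested, of 12 on the array, 7 fell and 0 rose (median -2.19), and their summed signal was 3591 and 3723 in Fxr+/+ and 404 and 337 in Fxr-/-. S100a8 went from 1887 and 1835 to 165 and 132 (-3.52 ± 0.45), S100a9 from 864 and 888 to 79.8 and 58.7 (-3.40 ± 0.31), and Ltf, at least 9.45-fold lower, from 319 and 437 to 9.2 and 12.6. Mpo, made by neutrophil precursors, was in the background range in both Fxr-/- arrays. Of 10 lymphocyte markers tested, of 17 on the array, 5 fell and 0 rose (median -1.15), with sums of 1350 and 1749 against 449 and 471. The T-cell genes Cd8b1 (547 and 707 against 134 and 120.1) and Cd3d (242 and 314 against 55.8 and 73) were among them.

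Of 15 macrophage and Kupffer cell markers tested, of 19 on the array, 5 fell and 0 rose (median -0.91). Their summed signal was 17157 and 18947 in Fxr+/+ and 10387 and 7428 in Fxr-/-. Lgals3, galectin-3, went from 3125 and 3825 to 818 and 837 (-2.04 ± 0.30), and Gpnmb, a gene of lipid-laden macrophages, was at least 8.23-fold lower. Other macrophage and Kupffer cell markers did not pass, among them Clec4f (-0.84), Adgre1 (-0.82), Marco (-0.47), Vsig4 (-0.45) and Cd163 (0.34). The part of these cells in the falls of the interferon and antigen presentation lists was not tested. With 1 array left out, the neutrophil list had 6, 4, 7 and 4 falls, the lymphocyte list 5, 3, 4 and 5, and the macrophage list 3, 3, 3 and 5.

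Markers of other cell types were counted in the same way, beside 5.45% higher and 9.14% lower over all genes. Of 18 endothelial markers 2 fell, a share near that of all genes (median -0.50, sums of 7185 and 7891 against 6745 and 4667), and of 23 stellate cell and matrix markers 4 fell (median -0.43, sums of 9464 and 11748 against 10568 and 8606). Thy1, a surface protein of fibroblasts and T cells, passed whichever array was left out (298 and 352 against 89.7 and 77.6). Without 1 array, the endothelial calls numbered 0, 0, 2 and 0 and the stellate calls 4, 1, 1 and 2. Among 8 bile duct markers 1 rose, Sox9, with 38 and 61.2 against 105 and 130.2 (adjusted p = 0.0378). Sox9 passed in none of the 4 fits (0.219, 0.0695, 0.0761 and 0.179). Krt23, a keratin, fell from 662 and 887 to 64 and 65.2 (-3.28 ± 0.23). Red cell markers gave 1 fall among 4, with sums of 21438 and 30169 against 14871 and 19492. It was Alas2, the erythroid 5-aminolevulinate synthase gene of heme synthesis (1054 and 1558 against 206 and 254). Alas2 was also the single call among 8 heme synthesis genes (median 0.43). Of 3 tested fat markers Cidec fell (sums of 8703 and 9650 against 6059 and 1878), and of 3 tested intestinal markers Apoa4 fell (sums of 5548 and 3444 against 808 and 528).

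**Figure D4:**
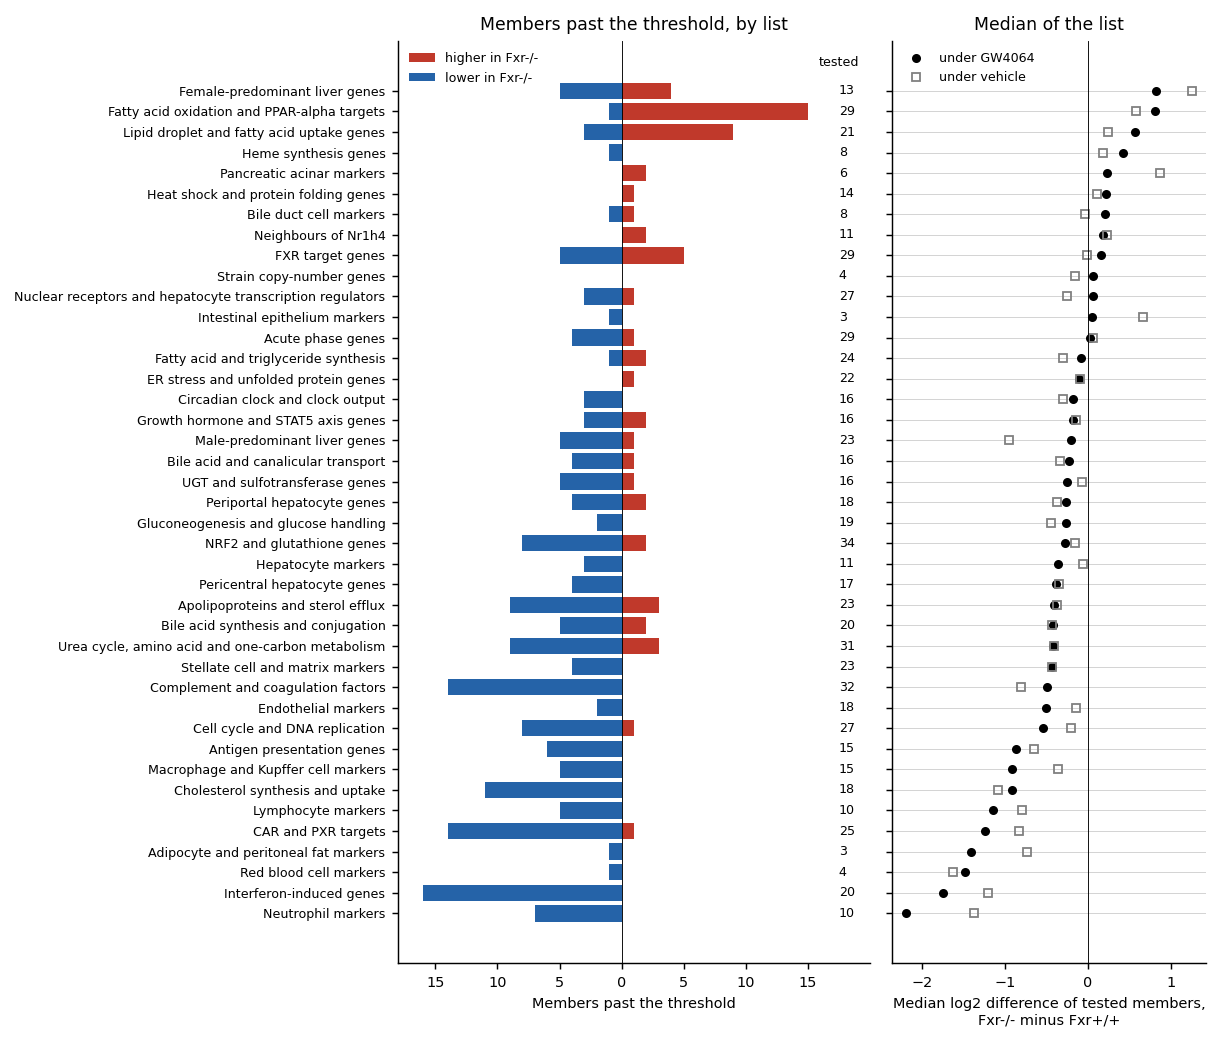
Bars on the left count the members of each of the 41 gene lists past the threshold under GW4064, higher to the right and lower to the left, with the number tested beside them, and symbols on the right give the median log2 difference of the tested members. The interferon list has the longest bar of falls (16 of 20), the fatty acid oxidation list the longest of rises (15 of 29), and filled circles (GW4064) and open squares (vehicle) lie on the same side of 0 in most lists.

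Cell cycle genes passed in both directions. Ccnd1, cyclin D1, which acts at entry into the cycle, rose from 1051 and 729 to 4984 and 6541 (2.68 ± 0.25, adjusted p = 0.000709), and its other 2 kept probes gave 2.59 and 2.65. The other 8 calls among 27 tested genes were falls, beside 9.14% lower and 5.45% higher over all genes. The median was -0.54. Aurka, a mitotic kinase, had 84.4 and 61.1 against 4.6 and 10, at least 1.82-fold lower, and Plk1, another, had 159.7 and 146 against 45.3 and 32.2 (-1.63 ± 0.24). Cdk1 had 166 and 144 against 51.4 and 40.3 and an adjusted p of 0.0167, which was 0.103, 0.0768, 0.0503 and 0.104 with 1 array left out. The other kept probe of Cdk1 gave -0.39 and did not pass (adjusted p = 0.50). The falls then numbered 2, 3, 2 and 2, and the rises 1, 1, 2 and 1.

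Genes that differ between the sexes in liver were read in males only. Their counts stand beside 5.45% higher and 9.14% lower over all genes. Of 23 male-predominant genes 5 fell and 1 rose (median -0.20). Cyp2f2, a P450 of periportal hepatocytes, went from 13872 and 13689 to 1818 and 1309.5 (-3.15 ± 0.21), and Cyp2d9 from 26633 and 27881 to 9884 and 7544 (-1.66 ± 0.20). Of 13 female-predominant genes 4 rose and 5 fell (median 0.82). Cyp4a14, also a PPAR-alpha target, rose from 4332 and 5782 to 16131 and 21445 (1.89 ± 0.24), and Cyp2b13 fell from 502 and 369 to 100.2 and 85.2 (-2.04 ± 0.22). With 1 array left out, male-predominant falls numbered 4, 4, 7 and 5 and rises 0, 1, 0 and 0. Female-predominant rises numbered 4, 3, 4 and 3 and falls 2, 3, 5 and 2.

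In the growth hormone axis 2 of 16 genes rose and 3 fell (1, 1, 1 and 1 falls, and 2, 1, 2 and 1 rises, with 1 array left out). The shares over all genes were 5.45% higher and 9.14% lower. Igfbp2, a binding protein for insulin-like growth factors, rose from 696 and 813 to 3820.2 and 4739 (2.47 ± 0.32, adjusted p = 0.00272). Igfbp1, its insulin-responsive relative, had 45.7 and 49.7 against 4.6 and -2.8, at least 1.21-fold lower. Ghr, the growth hormone receptor, had 5024 and 5324 against 2979.7 and 2836 (-0.83 ± 0.20, adjusted p = 0.0296, and 0.149 by its other kept probe), and passed in none of the fits without 1 of the 4 arrays (0.131, 0.172, 0.0761 and 0.123).

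Zonation markers mostly did not pass, and their counts stand beside 5.45% higher and 9.14% lower over all genes. Of 17 pericentral genes 4 fell and 0 rose (median -0.38), among them Cyp1a2, with 4132 and 5503 against 1799.9 and 1438 (-1.56 ± 0.24, and 0.0575 for the adjusted p without Fxr+/+ replicate 2). Of 18 periportal genes 4 fell and 2 rose (median -0.26), with Cdh1, E-cadherin, at 422 and 381 against 977 and 966 (1.25 ± 0.19, and 0.0571 without Fxr+/+ replicate 2). With 1 array left out the pericentral falls numbered 1, 0, 3 and 1, the periportal falls 2, 1, 3 and 3, and the periportal rises 1, 0, 1 and 1.

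Clock genes gave 3 falls among 16, led by Ciart, a clock-controlled repressor (441 and 585 against 138 and 150.0, -1.71 ± 0.24), and these numbered 1, 1, 2 and 1 with 1 array left out. Glucose metabolism gave 2 falls among 19 (1, 2, 3 and 2), near the 9.14% over all genes, with Khk, fructokinase, at 16449 and 13472 against 4500.2 and 5939 (-1.52 ± 0.23, and 0.0511 for the adjusted p without Fxr+/+ replicate 1). Over all genes 9.14% were lower, the share to set beside the clock falls, and 5.45% were higher. The unfolded protein and heat shock lists had 1 rise each, near that 5.45%. The unfolded protein list had 1 call among 22, Asns, asparagine synthetase, with 91.5 and 65.6 against 242 and 262 (1.52 ± 0.29). Its other kept probe gave 0.98 (adjusted p = 0.274). Asns did not pass without Fxr+/+ replicate 2 (0.0945), Fxr-/- replicate 1 (0.0501) or Fxr-/- replicate 2 (0.0787). Heat shock genes had 1 call among 14, Hspa1a, at 1.2 and 2.5 against 51.2 and 35.2, which passed in none of the 4 fits (0.0882, 0.0791, 0.0775 and 0.0577). Hspa1a is given no fold, as 1 Fxr-/- array also lay in the background range. Of 4 genes known to vary in copy number or by loss between mouse strains none passed. Hc, complement component 5, had the largest difference of them (-0.49, adjusted p = 0.135).

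Genes that neighbour Nr1h4 in RefSeq order, 10 on each side, formed a list of their own. Of 11 tested, 2 rose and 0 fell (median 0.18), and with 1 array left out 1 rose each time and 0, 0, 1 and 0 fell. Ikbip, known as an I-kappa-B kinase interacting protein, had 79 and 53.6 against 228 and 306 (1.79 ± 0.23, adjusted p = 0.00296). Slc25a3, the mitochondrial phosphate carrier, had 4376 and 3494 against 6399 and 6983 (0.77 ± 0.20, adjusted p = 0.0402), and passed in none of the fits without 1 of the 4 arrays (0.0934, 0.256, 0.0844 and 0.159). Among regulators of hepatocyte genes, 1 of 27 rose and 3 fell (median 0.06), shares near the 5.45% and 9.14% over all genes, with 0 rises and 1, 1, 3 and 1 falls in the fits with 1 array left out. The largest of these changes was that of Nr1i3. Pparg (-0.88, adjusted p = 0.0458) and Prox1 (0.80, adjusted p = 0.0489) were near the threshold and passed neither without one of the Fxr+/+ arrays (0.216 and 0.154 for Pparg, 0.225 and 0.171 for Prox1) nor without Fxr-/- replicate 2 (0.205 and 0.209). Prox1 also missed it without Fxr-/- replicate 1 (0.0642).

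The same genotype labels were compared under vehicle, with 1 Fxr-/- array against 2 Fxr+/+ arrays and no array in common with the comparison under GW4064, although the fit shares 1 estimate of the spread. There 667 genes passed (6.83%), 181 higher (1.85%) and 486 lower (4.98%). Of the 1425 genes called under GW4064, 539 were also called under vehicle, and 537 of these had the same sign. That is 37.8% of the GW4064 calls and 80.8% of the vehicle calls. Of all GW4064 calls 97.1% had the same sign under vehicle, against 69.1% of the genes not called. Across the 9766 genes, which are not independent replicates, the 2 sets of differences had a Pearson r of 0.778 and a Spearman rho of 0.644. The vehicle calls numbered 413 and 402 without the first or second Fxr+/+ vehicle array, and 429 when either Fxr+/+ GW4064 array was left out.

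Among named genes above background in both genotypes, Pdk4 differed by 3.96 under GW4064 and 4.31 under vehicle, Ehhadh by 3.56 and 3.68, and Haao by -5.66 and -5.40. The median of the interferon list was -1.74 under GW4064 and -1.21 under vehicle, with 16 and 9 falls. That of the fatty acid oxidation list was 0.81 and 0.58, with 15 and 7 rises. The neutrophil list had medians of -2.19 and -1.38, and 7 and 2 falls.

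**Figure D5:**
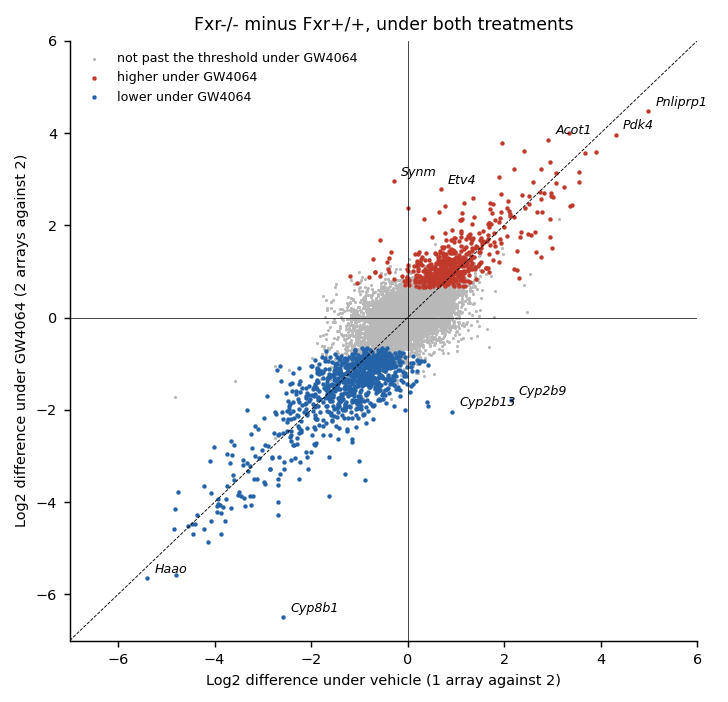
Each point is a gene, with its Fxr-/- minus Fxr+/+ log2 difference under vehicle on the x axis and under GW4064 on the y axis; colours mark the calls under GW4064 and the dashed line is equality. Most coloured points lie in the quadrants of equal sign (97.1%), while Cyp8b1, Cyp2b9, Cyp2b13, Synm and Etv4 lie away from the line.

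The difference between the genotype effects under the 2 treatments was tested directly in limma, and 0 of 9766 genes passed after adjustment (0% called), with 600 at an unadjusted p under 0.05 and a smallest adjusted p of 0.305. An offset of 1 gave 12 calls and no filter on dim probes 324. The 5 genes with the smallest p are therefore given as values that did not pass. For Cyp8b1 the genotype difference was -6.50 under GW4064 and -2.58 under vehicle, where the signal was 17829 and 20338 in Fxr+/+ and 3164 in Fxr-/-. Cyp2b9 and Cyp2b13 had opposite signs: -1.80 and -2.04 under GW4064, and 2.15 and 0.92 under vehicle. The Cyp2b9 signal was 2573 and 1813 (Fxr+/+) and 839 and 443 (Fxr-/-) under GW4064, and 565 and 437 (Fxr+/+) and 2258 (Fxr-/-) under vehicle. Its call under GW4064 was lost without Fxr+/+ replicate 1 (0.083) or Fxr-/- replicate 2 (0.0589).

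Synm, an intermediate filament protein, was in the background range in all Fxr+/+ arrays and in the Fxr-/- vehicle array (18.8), and had 221 and 380.0 in the Fxr-/- GW4064 arrays. Etv4, an ETS family transcription factor, had -12.3 and -11.9 against 103 and 86.5 under GW4064, at least 2.39-fold higher, and 9.7 in the Fxr-/- vehicle array. With 1 Fxr-/- vehicle array, none of these differences between treatments could be set against the spread of that group.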

How the data were processed

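Liver RNA was hybridised to an Illumina bead array, and 7 of the 8 deposited columns were used. Per the file headers and values, the authors deposited a linear intensity for each of 25697 probes, with background removed (31.5% to 31.6% of every column was negative) and with distributions matched (sorted columns differed by at most 0.5). The software is not given in the sources. The column of Fxr-/- vehicle replicate 2 held whole numbers from 14 to 139 whose highest Spearman correlation with an array was 0.0559, and it was not used. The analysis plan already provided for leaving it out on these grounds. The file gives no detection calls, so background was judged from the negative signals. The number of arrays limits the precision.

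Signals were converted here as log2(max(signal, 0) + 16). A probe was kept where it exceeded its array's median on at least 2 of the 7 arrays (14041 probes), and each of 9766 genes, of 16593 on the array, was tested through the brightest of its kept probes by mean. Names came from the platform annotation: 1 symbol for 23978 probes, several for 0 and none for 1719. A cell-means model of 4 groups was fitted in limma 3.58.1 (R 4.3.3) with 3 residual and 4.56 prior degrees of freedom, with two-sided tests, Benjamini-Hochberg adjusted p-values over all 9766 genes and 95% intervals. With 2 arrays against 2, an exact permutation test could not go below 0.333. The fit was checked on simulated data.

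The members, the 41 gene lists and the motifs were chosen with earlier results of these data known. The genes named by rule were 12 fixed genes, the 15 largest rises and 15 largest falls among called genes without overlap, per list up to 4 called members of smallest p, the largest difference in a list without calls, the 5 smallest p of the difference between treatments and the neighbours of Nr1h4. Bdh1, Ppara, Gadd45b and Isg15 were named after their values were seen. So were Plin2, Cidea, Plin5, Hilpda and Fitm2, and the macrophage markers Clec4f, Adgre1, Marco, Vsig4 and Cd163. Summed signals add the tested members' probes, with negative signals set to 0. Promoters came from RefSeq (GRCm38.p6, 32851 windows of 27025 genes), and 11 motifs were searched on both strands. The array's own genome build is not given in the sources. Alternatives tried were median centring, an added quantile normalization, other offsets, filters and probe rules, another variance model, the 4 GW4064 arrays alone, the replicate number as a block, and leaving out each array. Figures were drawn with matplotlib 3.10.9.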

Additional observations from a re-analysis of the deposited data

How the results depend on the processing

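Under GW4064 the called genes numbered 923 (294 higher) with an offset of 1, and 382 (157 higher and 225 lower) with no filter on dim probes. The count of higher genes was 805 with an offset of 100. Leaving out 1 array gave 498 to 1425 calls, with 149 to 532 higher and 349 to 893 lower. For the genotype comparison under vehicle, higher genes numbered 120 with offset 1, 354 with offset 100, 337 with a trended, robust variance model and 477 with no filter, where 230 were lower, and leaving out 1 array gave 402 to 641 calls, 102 to 172 higher and 298 to 469 lower. For the difference between the treatments, offset 1 gave 12 calls (11 higher and 1 lower) and no filter 324 (25 higher and 299 lower), against 0 in each of the other alternatives that could be fitted. The vehicle comparison and this difference have no value without the one Fxr-/- vehicle array. Without a filter, 3179 of 16593 genes had replicates that did not differ at all on the log2 scale, against 0 with it, and their part in those counts was not tested. The cause of the other shifts was not tested, except that fits without 1 array have fewer arrays by construction. With the replicate number as a block, 2000 genes passed under GW4064, 877 of them higher, and under vehicle 338 were higher. The block kept 1424 of the 1425 calls. Deviations of same-numbered arrays correlated at 0.233 under GW4064 and at 0.240 and 0.377 in the other pairs, and the labels give no more than a shared number. Median centring changed nothing, because the arrays' medians were already equal. The difference of Slc51a, in the background range, was -0.030 without Fxr+/+ GW4064 replicate 1, and -0.030 to 0.79 over the fits without 1 array. Of 738 list medians under the alternatives, 68 moved by more than the spread between replicates and 9 changed sign.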

Other observations

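Gene families were also counted by the stem of the gene symbol, after the values were seen, so the counts are descriptions without a test. Of 7 Gbp genes, interferon-induced GTPases that guard against pathogens inside cells, all 7 were called lower in the arrays labelled Fxr-/-, with a median of -2.28, and Gbp2 and Gbp3 are already in the interferon list. Of 6 Toll-like receptor genes (Tlr), which sense microbial molecules, 5 were lower and 0 higher (median -1.11). Of 10 genes with the symbol stem Irf 5 were lower and 0 higher (median -0.95). That stem is shared by the interferon regulatory factors and by genes named after them, so the count is not that of the factors alone.

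Among hepatocyte families, 6 of 7 Cyp2d genes were lower and 0 higher (median -1.66), and 6 of 11 carboxylesterases (Ces) were lower and 0 higher (median -0.98). Related Cyp2d, Ces and Gbp genes share sequence, so 1 transcript may be read by several probes. Of 7 aquaporins (Aqp) 4 were lower and 0 higher (median -0.76). Acyl-CoA thioesterases (Acot) went the other way, with 5 of 12 higher and 1 lower (median 0.71). Over all genes 5.45% were higher and 9.14% lower.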
